A study of Homo sapiens with 40 samples.

Results

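The 10 genes described here (VAV3, ARHGAP6, DIRAS2, SEMA5B, ANO3, KMO, IMPA2, MYH13, SMYD1 and LINC02532) were chosen by their transcript levels in these libraries, as large falls under decitabine or under its combination with a PARP inhibitor. All 10 were found by symbol among the 60664 genes of the deposited count table, and all 10 were among the 22527 genes kept by a filter on low counts. Total RNA was sequenced from 786-0, an established kidney cancer line of the clear cell kind, either with the gene SETD2 disrupted (KO) or with it intact (WT). Cells received 100 nM DAC (decitabine) together with 10 nM BMN673 (talazoparib, called BMN below), DAC alone at 100 nM, or BMN alone at 10 nM, and were sampled at days 5, 16 and 26, while untreated control cells were sampled at day 0. The 20 groups of line, treatment and day held 2 libraries each, 40 in all, with totals of 17833960 to 22631101 counts per library. All groups share the 786-0 background, and 1 line of each genotype was deposited, so a difference between KO and WT belongs to this pair of lines. Separate cultures are not stated for the replicates, so p-values may measure technical spread only. No untreated cells were sampled after day 0, and each comparison with control therefore carries time in culture along with the drug.

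The values that chose the genes were those of DAC and of the combination, so these are given below without a test. BMN alone was not the basis of the choice, and its comparisons are tested, although the control libraries they share with DAC did take part in it. The effect of BMN alone in KO was named when the set was defined. It may have been known when the genes were listed, so its p-values are not free of the choice. A fall under DAC alone holds for 9 of the genes. SMYD1 was higher than in control there, although it was lower under the combination than under DAC alone. Not every fall was among the largest on every day. At day 26 of DAC in WT, KMO, ANO3 and MYH13 ranked 2934, 1864 and 1837 from the lowest of all 22527 genes tested. Their log2 differences from control were -0.57, -0.77 and -0.78. Transcripts of the renal lineage factor PAX8 (221 to 486 CPM, counts scaled to a common library size) and of VIM (2998 to 5564 CPM) were present in all 40 libraries, whereas CA9, a hypoxia-induced gene of clear cell carcinoma, was at 0 in 15. Summed over 4 fibroblast markers the level was 33.9 to 85.9 CPM in libraries with DAC, against 5.41 to 14.8 CPM in those without. Of these PDGFRB (3.21 to 80.1 CPM) and LUM (0.839 to 23.1 CPM) were at 0 in no library, DCN was at 0 in 17 and PDGFRA in 33. Over 6 leukocyte markers the sum was 0.582 to 4.89 CPM with DAC, against 0.306 to 1.02 CPM without. CD14 (at most 0.880 CPM) was at 0 in no library and ITGAM (at most 3.75 CPM) in 1, while PTPRC, LYZ and CD3E were at 0 in 25, 26 and 35. The part of these markers in the falls was not tested. The SETD2 transcript itself averaged 127.0 ± 20 CPM in KO control and 139.2 ± 14 CPM in WT control (SD, n = 2 each), which does not tell the lines apart.

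DAC is a cytidine analogue that is built into DNA and traps DNA methyltransferases, so that methylation of cytosines at CG dinucleotides is lost as cells divide. Methylation of promoters rich in CG goes with silencing, and DAC is known above all for switching on such genes. PARP enzymes act in the repair of DNA breaks, and talazoparib both blocks them and holds them on DNA. SETD2 places the H3K36 trimethyl mark over transcribed genes, a mark to which DNA methyltransferases can bind, and its gene is often lost in clear cell renal carcinoma.

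The genes have varied roles. Within GTPase signalling, VAV3 (ENSG00000134215, chr1:107571161-107965180, minus strand) encodes a guanine nucleotide exchange factor that switches GTPases on, ARHGAP6 (ENSG00000047648, chrX:11117651-11665920, minus strand) a GTPase-activating protein that switches such proteins off, and DIRAS2 (ENSG00000165023, chr9:90609832-90642862, minus strand) a small GTPase of the Ras family best known from brain. At the cell surface, SEMA5B (ENSG00000082684, chr3:122909082-123028605, minus strand) encodes a transmembrane semaphorin, a class of guidance cue, and ANO3 (ENSG00000134343, chr11:26188842-26663289, plus strand) a membrane protein of the anoctamin family. The metabolic enzymes are KMO (ENSG00000117009, chr1:241532134-241595642, plus strand), kynurenine 3-monooxygenase of tryptophan breakdown, and IMPA2 (ENSG00000141401, chr18:11981025-12030877, plus strand), an inositol monophosphatase. The muscle genes are MYH13 (ENSG00000006788, chr17:10300865-10373130, minus strand), a myosin heavy chain of extraocular muscle, and SMYD1 (ENSG00000115593, chr2:88067825-88113384, plus strand), a SET-domain methyltransferase of heart and skeletal muscle. LINC02532 (ENSG00000235142, chr6:106705334-106788148, minus strand) is a long non-coding RNA gene. Positions are those of the deposited table on GRCh38.

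Promoter sequence is shown for a gene with a CG-rich start, a gene with a CG-poor start that was also lower under DAC, and the gene that was higher under DAC. CG is marked because it is the site at which methylation is lost after DAC. The windows run from 250 bases before to 50 bases after a transcription start and come from RefSeq on GRCh38.p14. They are read 5′ to 3′ on the gene's strand, with each CG in capitals (DIRAS2 at chr9:90642775-90643074, minus strand; KMO at chr1:241532128-241532427, plus strand; SMYD1 at chr2:88067575-88067874, plus strand).
DIRAS2: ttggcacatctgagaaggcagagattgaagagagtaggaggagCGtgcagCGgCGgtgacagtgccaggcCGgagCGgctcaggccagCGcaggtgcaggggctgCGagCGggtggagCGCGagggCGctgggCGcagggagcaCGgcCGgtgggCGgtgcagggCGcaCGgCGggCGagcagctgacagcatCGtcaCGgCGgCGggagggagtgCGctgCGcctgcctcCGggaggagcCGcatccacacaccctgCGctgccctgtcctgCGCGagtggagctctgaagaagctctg
KMO: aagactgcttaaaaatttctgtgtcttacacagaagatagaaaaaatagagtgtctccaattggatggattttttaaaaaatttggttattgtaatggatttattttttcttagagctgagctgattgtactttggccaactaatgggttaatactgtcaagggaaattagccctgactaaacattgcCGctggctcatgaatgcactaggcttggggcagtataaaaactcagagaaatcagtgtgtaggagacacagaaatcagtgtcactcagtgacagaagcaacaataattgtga
SMYD1: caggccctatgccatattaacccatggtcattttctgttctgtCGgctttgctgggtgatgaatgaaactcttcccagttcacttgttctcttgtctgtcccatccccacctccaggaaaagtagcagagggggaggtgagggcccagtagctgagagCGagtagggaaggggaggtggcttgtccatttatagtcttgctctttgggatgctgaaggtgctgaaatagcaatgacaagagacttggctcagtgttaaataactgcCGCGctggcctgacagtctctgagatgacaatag
The DIRAS2 window held 30 CG, a number reached or passed by 22.4% of 35116 promoter windows, the KMO window 1 (96.0% hold as many or more) and the SMYD1 window 4 (75.5%). The motif searched was CG, which reads the same on both strands, and the median over all windows was 14. The table has windows for 8 of the 10 genes, 12 in all, with 0 to 32 CG each: ARHGAP6 had 17, MYH13 4, VAV3 1 (at a start 276681 bases inside the gene as counted), ANO3 0, 23 and 1 at 3 starts, and SEMA5B 7, 32 and 7. Genes with large falls thus had both CG-poor and CG-rich windows. LINC02532 and IMPA2 are named only. Methylation was not measured in these libraries.

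Before treatment the genes differed in level within each line. Scaled by gene length, KO control ran from 8.45 CPM per kb for IMPA2 and 7.43 for SEMA5B to 0.839 for ARHGAP6, with SMYD1 near 0 (0.0242). In WT control IMPA2 was again first (19.9 CPM per kb) and MYH13 low (0.141). The muscle myosin MYH13 had 7.23 and 5.35 CPM in KO control, against 1.31 and 0.414 CPM in WT control. ARHGAP6, LINC02532, IMPA2 and VAV3 were lower in the KO control libraries than in the WT ones (log2 -1.60, -1.25, -1.24 and -0.52), whereas MYH13, KMO, DIRAS2 and ANO3 were higher (2.85, 0.97, 0.38 and 0.34). That is 4 of 10 with every KO library below every WT library and 4 above, against 26.7% and 24.3% of all genes tested. SEMA5B and SMYD1 overlapped.

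After 5 days of DAC in KO cells, 9 of the 10 genes lay below both control libraries and SMYD1 above them, while 29% of all genes tested lay below; since this contrast chose the genes, nothing is read from the count. Excluding SMYD1, the median log2 difference was -3.84, and over all genes tested it was 0.04. Among genes with a symbol and at least 5 CPM in the higher group, LINC02532 was the lowest of all and VAV3 came next, ahead of the keratin pseudogene KRT223P (log2 -4.57), which is not in the set. Apart from IMPA2, the last of the set was SEMA5B (log2 -3.32), which stood between CLDN2 (-3.34) and ALDH1A1 (-3.22), neither of which is in the set. Among all genes at that level, with or without a symbol, IMPA2 ranked 41 under DAC at day 5 in KO but 7 under the combination. The count was again 9 of 10 at days 16 and 26 of DAC in KO (30.6% and 30.6% of all genes) and at days 5, 16 and 26 of the combination (32.1%, 30.2% and 28.2%), SMYD1 being the exception each time. In WT cells the same 9 genes were below both control libraries at day 5 (25.2% of all genes), with a median log2 of -1.87 excluding SMYD1 and 0.02 over all genes. Among genes with a symbol and at least 5 CPM, ACSM2A, which is not in the set, was the lowest there (log2 -6.21), ahead of VAV3. In bulk RNA fewer cells carrying a transcript and less transcript per cell cannot be told apart.

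**Figure D1:**
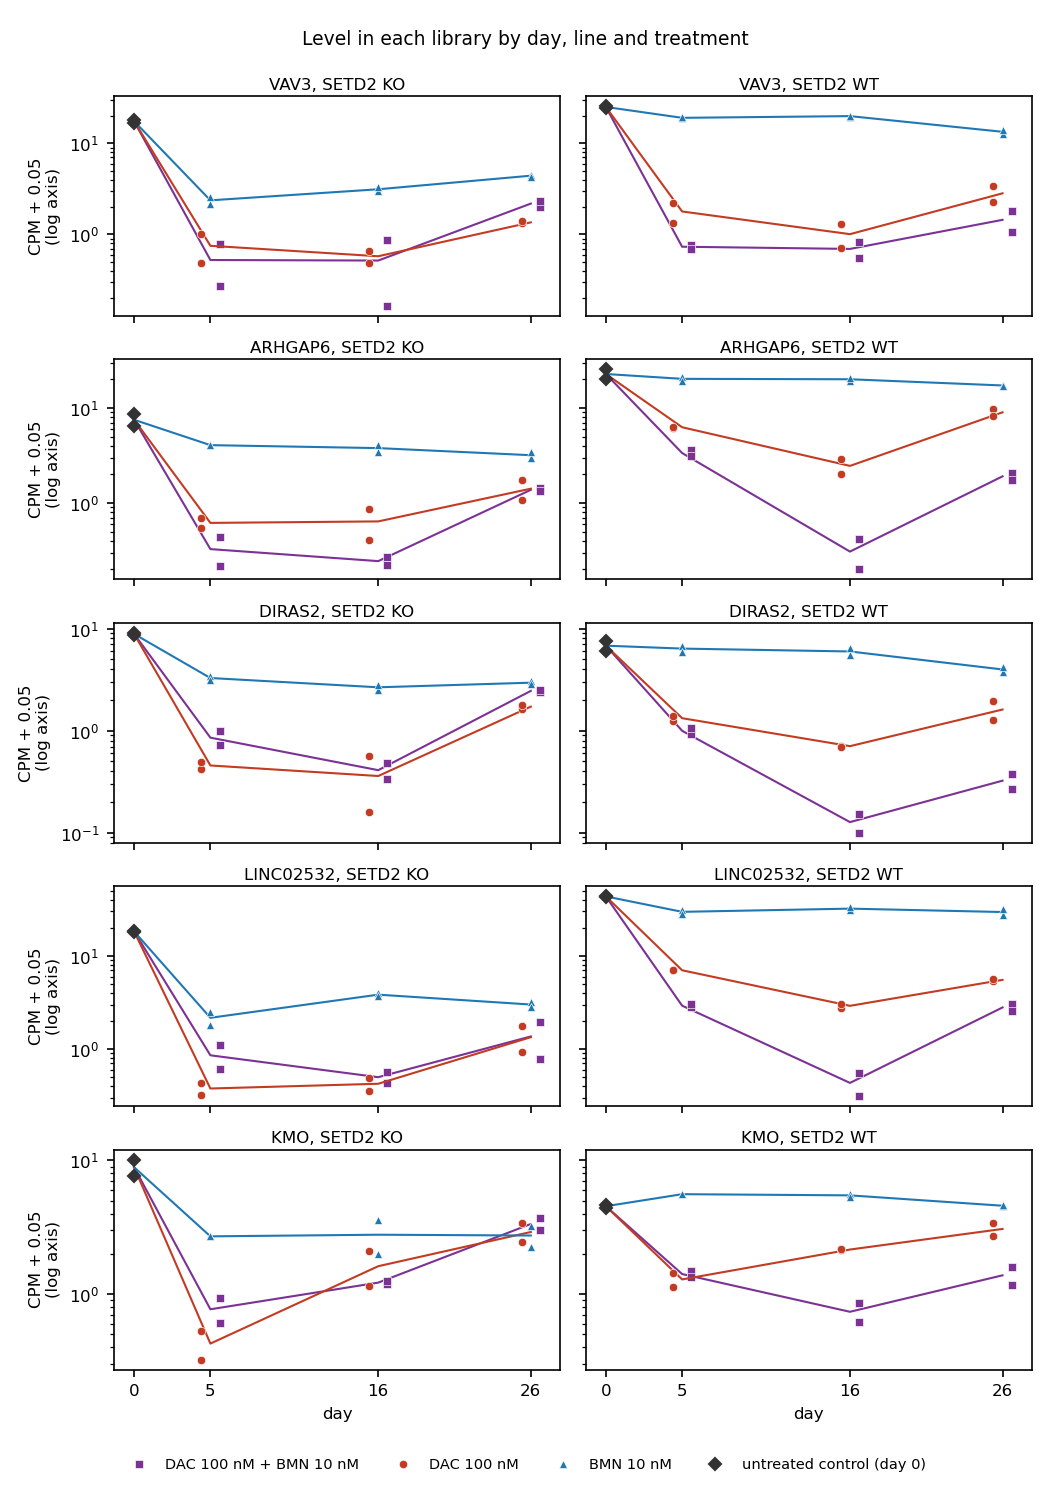
CPM plus 0.05 (log axis) against day for VAV3, ARHGAP6, DIRAS2, LINC02532 and KMO in KO (left) and WT cells (right). Each point is a library, points of 1 day are offset sideways by treatment, and lines join the means of 2 libraries from the shared day 0 control. Under DAC and the combination all 5 genes lie below control on each day; under BMN they lie below control in KO and nearer to it in WT.

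Among the genes of GTPase signalling, VAV3 was low under DAC in both lines. Under DAC the KO libraries had 0.440 and 0.960 CPM at day 5, 0.439 and 0.612 at day 16 and 1.34 and 1.27 at day 26, against 16.8 and 18.1 CPM in KO control. Under the combination KO cells had 0.221 and 0.725 CPM at day 5, 0.818 and 0.114 at day 16 and 1.97 and 2.29 at day 26. Every treated library lay far below both controls, and the 2 KO replicates of the combination at day 16 differed most. In WT the DAC libraries had 2.17 and 1.30 CPM at day 5, 1.25 and 0.664 at day 16 and 3.32 and 2.24 at day 26, against 25.7 and 24.5 CPM in WT control, and those of the combination 0.645 and 0.719 CPM at day 5, 0.783 and 0.502 at day 16 and 1.77 and 1.02 at day 26. The log2 difference of DAC from control at day 5 was -4.62 ± 0.30 in KO and -3.86 ± 0.25 in WT.

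ARHGAP6, whose product acts on GTPases in the opposite sense, was low under the same treatments. Under DAC it had 0.494 and 0.640 CPM at day 5, 0.823 and 0.357 at day 16 and 1.03 and 1.70 at day 26 in KO cells, against 8.53 and 6.39 CPM in KO control, and under the combination 0.387 and 0.167 CPM at day 5, 0.218 and 0.171 at day 16 and 1.38 and 1.27 at day 26. WT cells held more of it under DAC, with 6.26 and 6.17 CPM at day 5, 2.82 and 1.99 at day 16 and 8.27 and 9.63 at day 26, and under the combination they had 3.07 and 3.54 CPM at day 5, 0.366 and 0.151 at day 16 and 1.68 and 2.03 at day 26, against 20.1 and 25.4 CPM in control. The lowest WT libraries were those of the combination at day 16, and no treated library reached the control range in either line. DIRAS2 had 0.440 and 0.373 CPM at day 5, 0.110 and 0.510 at day 16 and 1.75 and 1.59 at day 26 under DAC in KO cells, 0.940 and 0.669 CPM at day 5, 0.436 and 0.285 at day 16 and 2.36 and 2.45 at day 26 under the combination and 8.58 and 9.04 CPM in control. In WT cells it had 1.34 and 1.21 CPM at day 5, 0.648 and 0.664 at day 16 and 1.92 and 1.21 at day 26 under DAC and 5.997 and 7.51 CPM in control. Under the combination at day 16 the WT libraries had 0.104 and 0.0502 CPM, which is 2 and 1 counts and at or below the level of 3 counts in a library (0.133 to 0.171 CPM across libraries, a floor that covers counting error only). By day 26 of DAC the KO libraries of DIRAS2 were above both those of day 5 yet still well below control.

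At the cell surface, the KO libraries of SEMA5B had 6.87 and 5.81 CPM at day 5, 10.9 and 9.85 at day 16 and 7.61 and 9.51 at day 26 under DAC and 2.43 and 2.34 CPM at day 5, 5.07 and 5.12 at day 16 and 10.4 and 14.6 at day 26 under the combination, against 60.9 and 65.7 CPM in control. Its WT libraries had 17.5 and 17.7 CPM at day 5, 11.6 and 11.7 at day 16 and 12.8 and 17.3 at day 26 under DAC and 7.58 and 8.22 CPM at day 5, 2.77 and 2.91 at day 16 and 8.97 and 10.2 at day 26 under the combination, against 48.3 and 64.3 CPM in control. The replicates differed most in WT control, in KO under the combination at day 26 and in WT under DAC at day 26, and treated and control libraries never overlapped. ANO3 in KO had 0.885 and 0.948 CPM at day 5, 0.164 and 0.171 at day 16 and 3.39 and 2.60 at day 26 under the combination and 0.989 and 0.640 CPM at day 5, 0.494 and 0.306 at day 16 and 2.01 and 2.28 at day 26 under DAC, against 8.58 and 8.87 CPM in control. In WT it had 1.29 and 0.924 CPM at day 5, 0.209 and 0 at day 16 and 0.747 and 0.530 at day 26 under the combination and 1.86 and 2.55 CPM at day 5, 0.694 and 0.142 at day 16 and 4.67 and 3.45 at day 26 under DAC, against 7.71 and 6.11 CPM in control. It was lowest at day 16 under both treatments in both lines, and all treated libraries stayed below both controls of their line.

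Of the metabolic enzymes, KMO had 0.275 and 0.480 CPM at day 5, 1.10 and 2.04 at day 16 and 3.34 and 2.39 at day 26 under DAC in KO cells, against 7.61 and 10.1 CPM in KO control. Its log2 difference from control was -4.52 ± 0.33 at day 5, -2.48 ± 0.26 at day 16 and -1.62 ± 0.24 at day 26, the widest range over days under DAC in KO among the 9 lowered genes. Under the combination the KO libraries had 0.885 and 0.558 CPM at day 5, 1.15 and 1.20 at day 16 and 3.64 and 2.96 at day 26. In WT it had 1.29 and 1.44 CPM at day 5, 0.574 and 0.803 at day 16 and 1.12 and 1.55 at day 26 under the combination and 1.09 and 1.39 CPM at day 5, 2.13 and 2.09 at day 16 and 3.36 and 2.69 at day 26 under DAC, against 4.38 and 4.61 CPM in control. The WT control level was lower than that of KO, and every treated library was below it. KMO overlaps OPN3 on the opposite strand, and the counts were made with a strand setting. IMPA2 showed the smallest difference under DAC in KO on each day among the 9, with 8.52 and 6.93 CPM at day 5, 7.08 and 6.63 at day 16 and 10.96 and 11.5 at day 26 under DAC in KO cells, against 32.4 and 32.1 CPM in control. Under the combination the KO libraries had 2.76 and 2.01 CPM at day 5, 2.51 and 2.96 at day 16 and 12.5 and 14.8 at day 26, so that the first 2 days were below DAC alone and the last above it. In WT IMPA2 had 8.66 and 10.8 CPM at day 5, 5.27 and 4.92 at day 16 and 15.4 and 11.7 at day 26 under the combination, 25.9 and 26.8 CPM at day 5, 17.1 and 16.7 at day 16 and 30.97 and 30.7 at day 26 under DAC and 70.6 and 81.6 CPM in control, and the 3 sets did not overlap on any day.

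The non-coding LINC02532 had 0.385 and 0.267 CPM at day 5, 0.439 and 0.306 at day 16 and 0.875 and 1.70 at day 26 under DAC in KO cells, which is 5 to 32 counts per library, against 18.4 and 18.1 CPM in control. The fold at day 5, 55.1-fold lower than control (log2 -5.78 ± 0.28), was the largest in KO cells. WT cells kept more: 6.93 and 6.96 CPM at day 5, 3.01 and 2.70 at day 16 and 5.65 and 5.29 at day 26 under DAC, against 43.6 and 43.3 CPM in control. Under the combination WT had 2.96 and 2.77 CPM at day 5, 0.261 and 0.502 at day 16 and 2.48 and 3.01 at day 26, and at day 16 its level was close to that of the KO libraries of the same day.

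**Figure D2:**
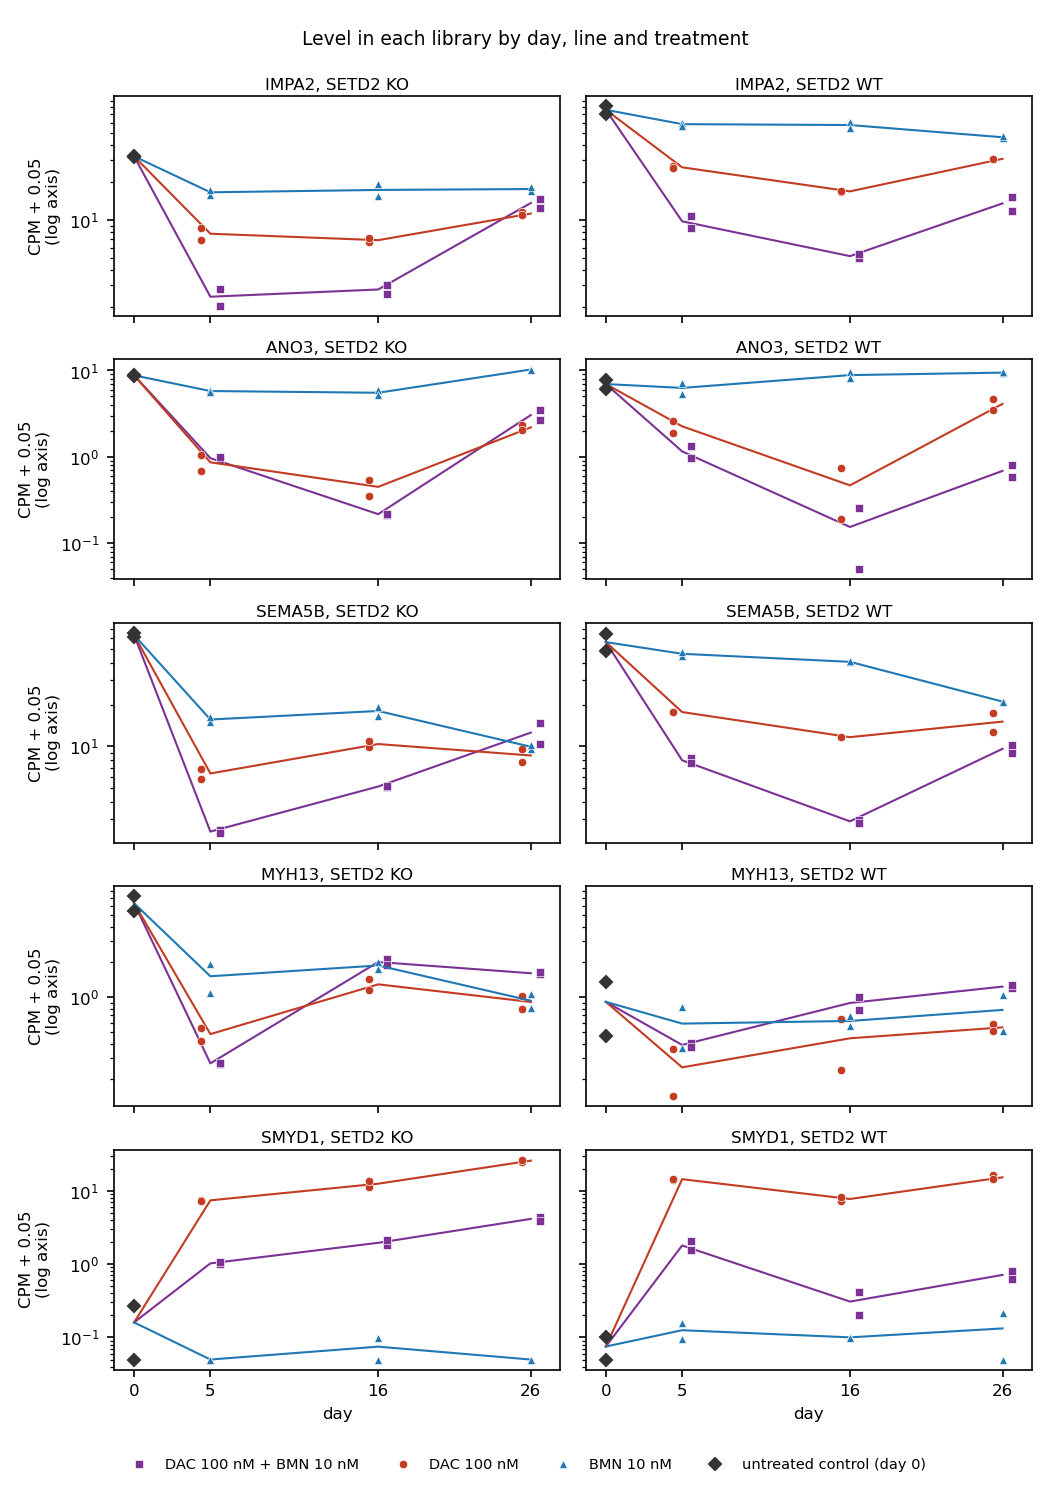
CPM plus 0.05 (log axis) against day for IMPA2, ANO3, SEMA5B, MYH13 and SMYD1 in KO (left) and WT cells (right), drawn as for the genes above. SMYD1 lies near 0 without DAC, highest under DAC and lower under the combination, and MYH13 in WT has no library above 1.31 CPM.

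Of the muscle genes, MYH13 was low under DAC in KO, where control was higher than in WT. It had 0.494 and 0.373 CPM at day 5, 1.10 and 1.38 at day 16 and 0.977 and 0.744 at day 26 under DAC in KO cells and 0.221 and 0.223 CPM at day 5, 2.07 and 1.82 at day 16 and 1.52 and 1.58 at day 26 under the combination, against 7.23 and 5.35 CPM in control, with no overlap. In WT, where control held only 26 and 8 counts, the DAC libraries had 0.310 and 0.0929 CPM at day 5, 0.601 and 0.190 at day 16 and 0.467 and 0.538 at day 26. These overlapped with control at days 16 and 26, so in WT the number of genes below both controls was 8 of 10 at each of those days (27.5% and 23.1% of all genes). Under the combination in WT it was 9, 8 and 8 at days 5, 16 and 26 (29.9%, 29.9% and 28.6%). MYH13 belongs to a family of closely related myosin genes, so some reads can match more than 1 of them. Reads below a mapping quality of 20 were not counted, and its level is uncertain to that extent.

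SMYD1 was nearly silent without DAC: 0 and 4 counts in the KO control libraries, 1 and 0 in WT control and 0 to 3 in each of the 12 BMN libraries. With DAC it had 7.20 and 7.47 CPM at day 5, 13.6 and 11.2 at day 16 and 26.4 and 24.8 at day 26 in KO cells and 14.5 and 14.02 CPM at day 5, 8.10 and 7.20 at day 16 and 14.2 and 16.04 at day 26 in WT cells. Every DAC library was far above every control and BMN library. With the combination it had 0.940 and 1.004 CPM at day 5, 1.75 and 2.05 at day 16 and 4.38 and 3.77 at day 26 in KO and 1.99 and 1.49 CPM at day 5, 0.366 and 0.151 at day 16 and 0.747 and 0.575 at day 26 in WT. At each day and in each line both libraries of the combination were below both of DAC alone, with log2 differences of -2.91 ± 0.27, -2.70 ± 0.23 and -2.65 ± 0.20 at days 5, 16 and 26 in KO, and -3.04 ± 0.23, -4.87 ± 0.34 and -4.51 ± 0.26 in WT. The combination at WT day 16 held 7 and 3 counts. No fold over control is given, since those counts are too few.

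The combination was also set against DAC alone for the other 9 genes. In KO at day 5, IMPA2, SEMA5B, ARHGAP6 and MYH13 were lower under the combination than under DAC (log2 -1.69, -1.41, -1.02 and -0.94), and LINC02532, DIRAS2 and KMO were higher (1.29, 0.98 and 0.92). With SMYD1 that made 5 of 10 below and 3 above, against 28.5% and 31.4% of all genes, and at day 16 it was 5 below and 1 above (28.1% and 29.5%). At day 26 in KO no gene but SMYD1 was below DAC (33.3% of all genes were), and 6 were above it (30.9%), with log2 values of 0.28 for IMPA2 to 0.84 for MYH13. In WT 8 genes were below DAC and 1 above at day 5 (27.2% and 25.9% of all genes), and 7 and 1 at day 16 (28.2% and 26.2%). At day 26 in WT all but MYH13 were below DAC (20.5% of all genes were above), 9 of 10 against 21.9% of all genes, led apart from SMYD1 by ANO3 (-2.66 ± 0.33), DIRAS2 (-2.49 ± 0.37) and ARHGAP6 (-2.26 ± 0.21). These contrasts share libraries with those that chose the genes, and the difference between the lines was not tested.

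**Figure D3:**
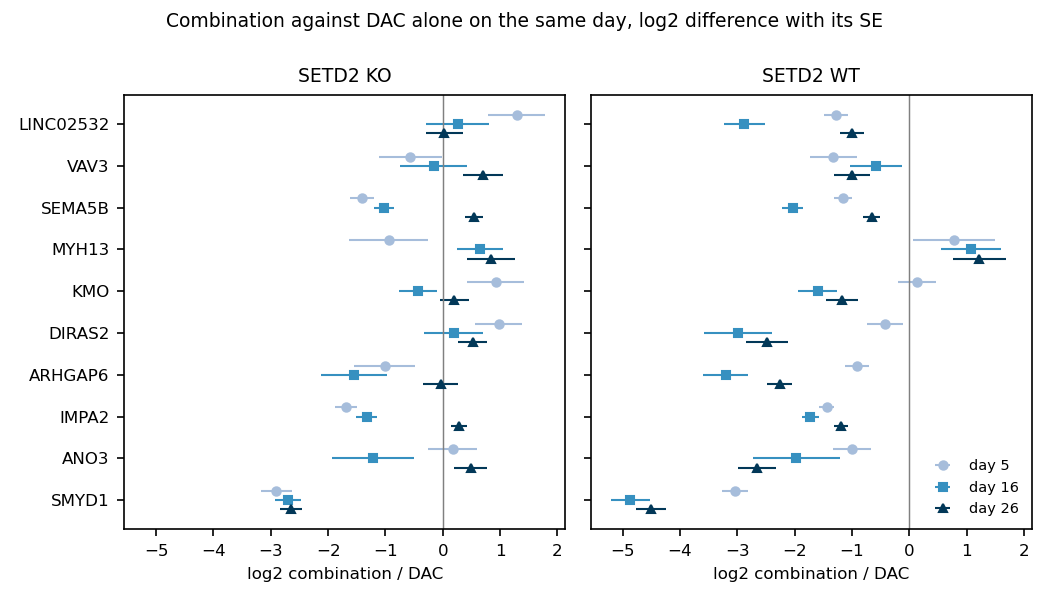
Log2 difference of the combination from DAC alone on the same day (x axis) for each gene, with bars of 1 SE, in KO (left) and WT cells (right). In KO the points move to or above 0 by day 26 for every gene except SMYD1 and ARHGAP6 (log2 -0.04), and in WT they stay below 0 for every gene except MYH13 and, at day 5, KMO.

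In KO under DAC the 9 lowered genes were nearer to control at the last day than at the first. Under DAC all 10 genes were higher at day 26 than at day 5 in every KO library (35.5% of all genes were higher and 30.8% lower), with a median log2 of 1.25 excluding SMYD1, and under the combination 9 were (35.3%), LINC02532 overlapping (median 2.18). KMO had the largest such difference under DAC (log2 2.90 ± 0.38) and MYH13 under the combination (2.77 ± 0.55). In WT 6 genes were higher and 2 lower under DAC (27.2% and 25.4% of all genes), and 4 higher and 4 lower under the combination (32.7% and 32.9%). DIRAS2 was the lowest of these (log2 -1.77 ± 0.41). For WT the combination was deepest at day 16, where the median log2 from control was -5.28 excluding SMYD1, against 0.05 over all genes.

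Most of these genes were lower under BMN alone than in the day 0 control in KO cells, a difference that carries time in culture as well. VAV3 had 2.13 and 2.50 CPM at day 5, 2.94 and 3.23 at day 16 and 4.50 and 4.23 at day 26 under BMN, against 16.8 and 18.1 CPM in control. LINC02532 had 1.77 and 2.45 CPM at day 5, 3.93 and 3.62 at day 16 and 3.13 and 2.77 at day 26, against 18.4 and 18.1 CPM. SEMA5B had 14.99 and 16.2 CPM at day 5, 19.3 and 16.6 at day 16 and 9.61 and 10.2 at day 26, against 60.9 and 65.7 CPM. No BMN library of these 3 genes reached the control range. KMO had 2.65 and 2.66 CPM at day 5, 1.94 and 3.53 at day 16 and 3.17 and 2.22 at day 26, against 7.61 and 10.1 CPM. DIRAS2 had 3.38 and 3.08 CPM at day 5, 2.44 and 2.78 at day 16 and 2.98 and 2.82 at day 26, against 8.58 and 9.04 CPM. These too lay below both controls, and the 5 genes were lower than control by edgeR's quasi-likelihood test at each of the 3 days. At day 5 the log2 difference from control was -3.11 ± 0.20 for LINC02532 (adjusted p = 6.74e-13), -2.91 ± 0.25 for VAV3 (3.19e-10) and -2.02 ± 0.14 for SEMA5B (1.03e-12). KMO stood at -1.73 ± 0.24 (6.82e-06) and DIRAS2 at -1.45 ± 0.21 (1.25e-05).

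The myosin gene MYH13 had 1.04 and 1.88 CPM at day 5, 1.94 and 1.69 at day 16 and 0.758 and 1.01 at day 26 under BMN in KO cells and was lower than control at every day (log2 -2.10, -1.79 and -2.83). IMPA2 and ARHGAP6 fell less, with log2 values of -0.87 to -0.96 and -0.89 to -1.25 over the 3 days. ANO3 was the exception among the lowered genes. Its KO libraries had 5.88 and 5.58 CPM at day 5, 5.83 and 5.11 at day 16 and 10.2 and 10.2 at day 26 under BMN, so those of day 26 were above both controls. In all 8 of 10 genes passed as lower at day 5 against 6.65% of all genes tested, 9 at day 16 against 15.2%, and 8 at day 26 against 17.5%. None passed as higher by edgeR or DESeq2, and at an unadjusted p below 0.05 the number higher was 0 at each day as well. The control libraries in these comparisons also took part in choosing the genes, so the counts are not a test against the share of all genes. Excluding SMYD1, the median log2 was -1.73, -1.75 and -1.71, and over all genes it was 0.00 at each day. SMYD1, at 0 to 4 counts in these libraries, did not pass.

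The calls that rested on a library were those of the smaller differences. ARHGAP6 at day 5 (adjusted p = 0.00284 by edgeR) was lost without KO control replicate 1 (0.0995; 4.85e-04 to 0.0995 over all alternatives). ANO3 at day 16 (log2 -0.67 ± 0.22, adjusted p = 0.0253 by edgeR) was lost without KO control replicate 1 (0.0716), KO control replicate 2 (0.0812) or KO BMN day 16 replicate 2 (0.144; 0.00422 to 0.144 over all alternatives). At day 5 ANO3 did not pass (log2 -0.61 ± 0.22, unadjusted 95% interval -1.06 to -0.15). It was called by DESeq2 (0.0483) and with only the libraries compared in the fit (0.0181; 0.0181 to 0.219 over all alternatives). SMYD1, resting on a few counts, passed as lower at day 26 without KO control replicate 1 (adjusted p = 0.0134 by edgeR; 0.0134 to 1 over all alternatives).

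**Figure D4:**
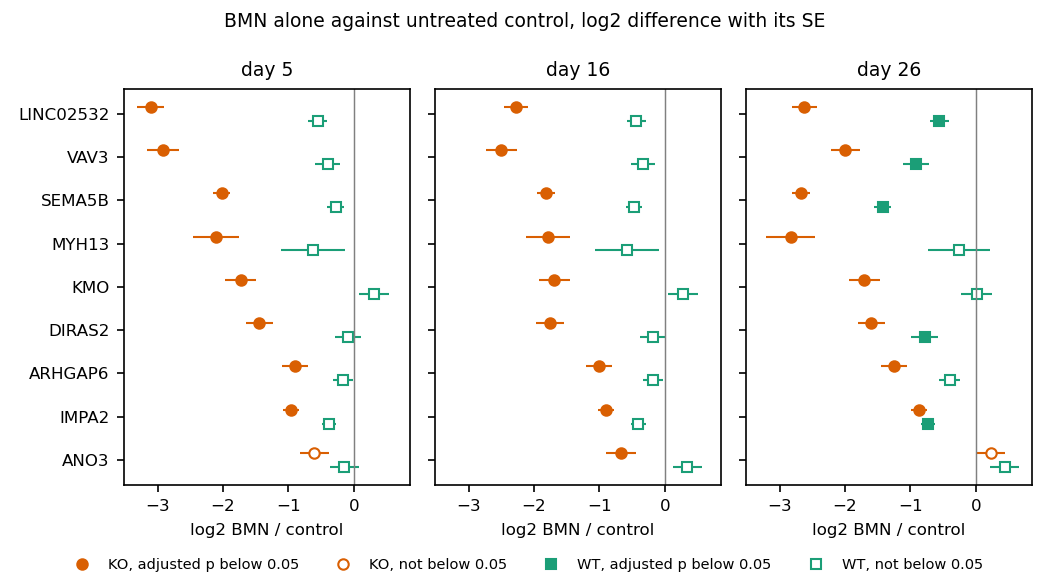
Log2 difference of BMN alone from untreated control (x axis) at days 5, 16 and 26 for 9 genes, with bars of 1 SE. KO cells (circles) lie left of WT cells (squares) for every gene and day; filled symbols passed an adjusted p of 0.05 by edgeR. SMYD1 is left out because its counts were 0 to 4.

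In WT cells BMN left most of these genes nearer to control, though ANO3 at day 26 was farther from it (log2 0.44, against 0.23 in KO). VAV3 had 19.4 and 18.7 CPM at day 5, 20.2 and 19.6 at day 16 and 14.2 and 12.6 at day 26 under BMN, against 25.7 and 24.5 CPM in control. LINC02532 had 28.2 and 31.2 CPM at day 5, 33.2 and 31.01 at day 16 and 31.7 and 27.3 at day 26, against 43.6 and 43.3 CPM. SEMA5B had 48.2 and 44.6 CPM at day 5, 40.9 and 40.3 at day 16 and 20.7 and 21.3 at day 26, against 48.3 and 64.3 CPM. The first pair lay below both controls at all days, and SEMA5B did so by a small margin at day 5. KMO had 5.54 and 5.55 CPM at day 5, 5.31 and 5.55 at day 16 and 4.57 and 4.50 at day 26, against 4.38 and 4.61 CPM, and did not pass at any day. By edgeR 0 of 10 genes passed at day 5 and 0 at day 16, where 0.04% and 0.426% of all genes were called lower. At an unadjusted p below 0.05 the counts were 4 and 3, all lower. DESeq2 called 1 at day 5 (LINC02532) and 2 at day 16 (IMPA2 and SEMA5B). Without WT control replicate 1, LINC02532, IMPA2 and SEMA5B passed at day 16 (adjusted p = 0.0422, 0.00228 and 7.10e-04 by edgeR). Over all alternatives their adjusted p ran 0.0422 to 0.53, 0.00228 to 0.574 and 7.10e-04 to 0.694. The 2 WT control libraries differed from each other more than those of any other group.

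At day 26 of BMN in WT, 5 of 10 genes passed as lower, against 11% of all genes. Here too the control libraries took part in choosing the genes. SEMA5B had the largest difference (log2 -1.42 ± 0.13, adjusted p = 1.39e-09 by edgeR), followed by VAV3 (-0.91 ± 0.20), DIRAS2 (-0.78 ± 0.21), IMPA2 (-0.73 ± 0.11) and LINC02532 (-0.56 ± 0.15). The DIRAS2 call (adjusted p = 0.00557 by edgeR) was lost without WT control replicate 2 (0.0941; 0.00142 to 0.0941 over all alternatives), and those of DIRAS2 and LINC02532 were lost with only the libraries compared (0.092 and 0.0755; LINC02532 7.13e-04 to 0.0755 over all alternatives). ANO3 had 9.42 and 9.35 CPM at that day, above both WT controls, and did not pass (log2 0.44 ± 0.22). ARHGAP6 did not pass either (log2 -0.40 ± 0.16), but was called without WT control replicate 1 (adjusted p = 0.00619 by edgeR) and with RLE size factors (0.0459; 0.00619 to 0.408 over all alternatives).

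The response to BMN was then compared between the lines, averaged over the 3 days. It was lower in KO than in WT for 6 of 10 genes by edgeR, against 1.1% of all genes tested. The controls of both lines enter this difference and took part in choosing the genes, so the count is not a test against that share. The difference of the log2 responses was -2.15 ± 0.19 for LINC02532 (adjusted p = 4.04e-09), -1.92 ± 0.24 for VAV3 (5.12e-06), -1.91 ± 0.27 for KMO (4.21e-05) and -1.45 ± 0.15 for SEMA5B (1.21e-07). These 4 calls were kept in every alternative run. DIRAS2 (-1.24 ± 0.23, adjusted p = 0.00197 by edgeR) was not called without WT control replicate 1 (0.077; 0.00104 to 0.077 over all alternatives). ARHGAP6 (-0.80 ± 0.20, 0.0395) lost its call in 14 of 22 alternatives, with adjusted p of 0.00417 to 0.433; the largest came without WT control replicate 1. Of the 16 libraries left out in turn, it kept its call only without replicate 2 of KO control, WT control or KO BMN day 26, or replicate 1 of WT BMN day 26. MYH13, IMPA2 and ANO3 did not pass after adjustment, with unadjusted 95% intervals of -2.71 to -0.79, -0.67 to -0.13 and -1.08 to -0.05 for the difference. MYH13 (-1.75 ± 0.47, adjusted p = 0.0558 by edgeR) did pass in 5 of 21 alternatives. Without WT control replicate 1 its difference was -2.79 (adjusted p = 0.0171 by edgeR; 0.0107 to 0.175 over all alternatives), and it also passed without WT BMN day 5 replicate 1, KO BMN day 5 replicate 2 or WT BMN day 26 replicate 2, and with no filter. IMPA2 passed in 1 of 22, without WT control replicate 2 (0.0157; 0.0157 to 0.73 over all alternatives).

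A comparison of KO with WT inside the BMN libraries uses no library of DAC, the combination or control. The effect of BMN in KO may still have been known when the genes were listed. Averaged over days 5, 16 and 26, 8 genes were lower and 1 higher in KO by edgeR, where 26.8% and 21.3% of all genes were. LINC02532 averaged 2.95 CPM in KO under BMN and 30.4 CPM in WT (log2 -3.40 ± 0.11, adjusted p = 1.48e-23), the largest difference resting on more than a few counts. VAV3 stood at -2.44 ± 0.14, ARHGAP6 at -2.40 ± 0.11, IMPA2 at -1.64 ± 0.07 and SEMA5B at -1.28 ± 0.08, followed by KMO (-0.93 ± 0.14) and DIRAS2 (-0.86 ± 0.12). MYH13 was higher in KO (1.10 ± 0.26, adjusted p = 7.23e-04 by edgeR), although its libraries overlapped, and ANO3 did not pass (-0.23 ± 0.13). ARHGAP6, LINC02532, IMPA2 and VAV3 were also lower in KO before treatment, and DIRAS2, KMO and ANO3 were not. The SMYD1 call rested on 0 to 3 counts per library and was lost without WT BMN day 5 replicate 1 (adjusted p = 0.0566 by edgeR) or WT BMN day 26 replicate 1 (1; 0.00864 to 1 over all alternatives).

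Between days 5 and 26 of BMN few of the genes moved. In KO, SEMA5B was lower at day 26 (log2 -0.65 ± 0.15, adjusted p = 0.00188 by edgeR), and VAV3 (0.91 ± 0.28) and ANO3 (0.83 ± 0.22) were higher, so 1 of 10 passed as lower and 2 as higher, against 9.38% and 8.95% of all genes. The VAV3 call (adjusted p = 0.0185 by edgeR) was lost without any 1 of the 4 libraries: 0.172 and 0.0727 without day 5 replicates 1 and 2, and 0.12 and 0.0576 without day 26 replicates 1 and 2 (0.00283 to 0.172 over all alternatives). That of ANO3 (0.00678 by edgeR) was lost without day 5 replicate 1 (0.054) or 2 (0.0795) or day 26 replicate 1 (0.0523; 2.15e-04 to 0.0795 over all alternatives). In WT, SEMA5B (-1.14 ± 0.13), DIRAS2 (-0.69 ± 0.21) and IMPA2 (-0.35 ± 0.11) were lower at day 26, 3 of 10 against 10.3% of all genes. The DIRAS2 call (adjusted p = 0.0151 by edgeR) was lost without WT BMN day 5 replicate 2 (0.0892) or day 26 replicate 2 (0.0571; 0.0105 to 0.0892 over all alternatives). The IMPA2 call (0.0216 by edgeR) was lost without WT BMN day 5 replicate 2 (0.0735; 0.00796 to 0.0735 over all alternatives). VAV3 did not pass there (log2 -0.51 ± 0.20), but was called as lower by DESeq2 (0.0298), with RLE size factors, with no filter and with only the libraries compared (adjusted p of 0.0184 to 0.131 over all alternatives). ANO3 (0.58 ± 0.22) was called as higher only with the name suffix as a term (0.0188; 0.0188 to 0.503 over all alternatives). In a test added after the values were seen, the change of VAV3 between these days differed between KO and WT, by log2 1.42 ± 0.34 (adjusted p = 0.0106 by edgeR; 1.37% of all genes passed as higher). Without KO BMN day 5 replicate 1 the adjusted p was 0.0673 (1.96e-04 to 0.0673 over all alternatives).

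With DAC added to BMN most of the genes were lower than under BMN alone in KO at days 5 and 16, and fewer at day 26. The combination was below BMN alone in every library for 9, 8 and 6 of 10 genes at days 5, 16 and 26 in KO (33%, 30.2% and 22.7% of all genes) and for 8 at each day in WT (33.7%, 34.3% and 31.3%). It was above BMN alone in every library for 1, 1 and 3 genes in KO (39.3%, 36.9% and 33.4% of all genes) and for 1, 2 and 2 in WT (35.6%, 36.1% and 32.7%), SMYD1 among them each time. In KO at day 26 SEMA5B had 10.4 and 14.6 CPM under the combination and 9.61 and 10.2 CPM under BMN. MYH13 had 1.52 and 1.58 CPM against 0.758 and 1.01 CPM, so both genes lay above BMN alone. There the combination lay a little below BMN for IMPA2 (12.5 and 14.8 CPM against 17.05 and 18.3 CPM) and DIRAS2 (2.36 and 2.45 CPM against 2.98 and 2.82 CPM), and for KMO the libraries overlapped (3.64 and 2.96 CPM against 3.17 and 2.22 CPM). These values are a description, since the combination took part in the choice.

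Relatives of the 10 genes moved in both directions under DAC. Of 126 tested genes in 9 family and pathway lists, the genes themselves left out, 21 were lower and 44 higher under DAC at day 5 in KO, against 16% and 19.5% of all genes. The median log2 was 0.24, against 0.04 over all genes. In WT at day 5 the counts were 18 and 38 (background 12.2% and 15.6%). At day 26 they were 32 and 40 in KO (background 20.9% and 26.3%) and 17 and 41 in WT (13.2% and 18.7%). With only the libraries compared in the fit, the WT counts were 7 and 29 at day 5 and 8 and 25 at day 26. The nearest relatives of VAV3 are VAV1, at or near 0, and VAV2, which did not pass at day 5 in KO, at 148.6 CPM under DAC and 148.4 CPM in control (log2 0.00 ± 0.07). Of 7 genes related to DIRAS2 3 rose there, DIRAS1 among them, to 0.543 CPM under DAC against 0.0276 CPM in control, both low levels.

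Of 30 semaphorins and receptors 4 fell and 13 rose under DAC at day 5 in KO, against 16% and 19.5% of all genes, and 12 fell and 8 rose at day 26 (20.9% and 26.3%). SEMA6A fell to 48.7 CPM, against 307.0 CPM in control (log2 -2.66 ± 0.07, adjusted p = 1.96e-24 by edgeR), and SEMA5A, the closest relative of SEMA5B, to 184.7 CPM against 327.2 CPM (-0.82 ± 0.05). SEMA7A rose to 109.7 CPM against 35.6 CPM (1.62 ± 0.10). Under BMN alone in KO, 12, 16 and 18 of the 30 fell at days 5, 16 and 26 and 2 rose at each day. Of all genes 6.65%, 15.2% and 17.5% were lower and 5.07%, 10.3% and 15.6% higher at those days. SEMA6A stood at -0.70 ± 0.07 at day 5. In WT under BMN 8 fell and 1 rose at day 26 (11% and 12% of all genes). The list was among those drawn up with results of these data known.

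In the kynurenine pathway KYNU, which acts after KMO, rose under DAC at day 5 in KO to 10.4 CPM, against 4.25 CPM in control (log2 1.30 ± 0.17), whereas AFMID, which makes kynurenine, fell (-1.20 ± 0.13) and QPRT fell slightly (-0.39 ± 0.09). Of the 9 tested genes of the list 2 fell and 1 rose, where 16% of all genes fell and 19.5% rose, the same shares standing beside the counts that follow. IMPA1, the other inositol monophosphatase, rose to 41.1 CPM, against 25.7 CPM (0.68 ± 0.10), and 6 of 9 inositol genes rose. Of 8 anoctamins 5 rose and 1 fell, with ANO9 at 15.04 CPM against 2.29 CPM (2.71 ± 0.18). Among muscle genes 4 of 13 rose and 1 fell: DES, the intermediate filament of muscle, had 2.36 CPM under DAC and 0.136 CPM in control (4.05 ± 0.60), and CKM, muscle creatine kinase, 0.650 CPM against 0. SMYD3 (-0.52 ± 0.11) and SMYD5 (-0.30 ± 0.10) fell slightly, and SMYD2 and SMYD4 did not pass.

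Across the 20 group means, the gene whose log2 level was most like that of each of the 10 was found by Pearson's r over all genes with a symbol, and 9 of these are given. The pairs were VLDLR with ARHGAP6 (r = 0.978), PPP1R9A with ANO3 (r = 0.976), SHMT1 with IMPA2 (r = 0.975), WASF2 with SEMA5B (r = 0.973), ARHGAP6 with LINC02532 (r = 0.964), LINC02593 with VAV3 (r = 0.953), PSD2 with SMYD1 (r = 0.935), CCDC183 with KMO (r = 0.916) and COMMD7 with MYH13 (r = 0.840). ARHGAP6, the gene most like LINC02532, is itself 1 of the 10. The 20 points share controls, lines and drugs, so these values are a description, and MYH13 had the weakest match of the 9.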

How the data were processed

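The 40 libraries of 20 groups were made with KAPA RNA HyperPrep reagents, as the labels state. The authors deposited raw counts per gene, without normalization, made with featureCounts 1.5.0-p1 on the Ensembl 104 annotation of GRCh38 with strand setting 1 and a mapping quality of at least 20, per the file headers. The header names 76 alignments, and all 40 columns matched a labelled sample. Trimmomatic and Partek are named in the submitters' processing notes.

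The filter was filterByExpr on the 20 groups, with 10 as minimum count and 15 as minimum total. Libraries were scaled by TMM, and edgeR 4.0.16 under R 4.3.3 fitted 1 mean per group to all 40, which left 20 residual degrees of freedom (biological coefficient of variation 0.0718). Quasi-likelihood p-values were Benjamini-Hochberg adjusted over 22527 genes for each contrast and called below 0.05. CPM use the TMM library sizes, except those of the cell type markers and their sums, which use the raw library totals. Values after ± are SE for log2 and SD (n = 2) for CPM. On simulated counts for BMN in KO at day 5 (20636 genes) 46 of the 67 genes set to change 1.5-fold were recovered, as were 64 of 67 set to 2-fold and 63 of 66 set to 4-fold, with 4 false calls. Every simulated gene had the same dispersion (0.00515), whereas the spread between real replicates differed by group, so recovery in the data may be lower. Alternatives were RLE size factors, DESeq2 1.42.0, no filter, only the libraries compared, the replicate number as a block, the L1_1 suffix of the alignment names (17 libraries with, 23 without) as a term, and each library left out.

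The 10 genes and the family lists were chosen with earlier results of these data known. Family genes were named where they share a name stem with 1 of the 10 or had 1 of the 3 largest called differences of their list under DAC at day 5 in KO. Ranks required 5 CPM in the higher of both groups, except those of KMO, ANO3 and MYH13 under DAC in WT at day 26. Likeness used log2 of CPM plus 0.5. Some genes and family lists are not reported here.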

Additional observations from a re-analysis of the deposited data

Results flagged for a closer look

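Differences between the lines in the response to BMN stood out for 6 genes, each tested as KO response minus WT response averaged over days by edgeR. The controls in this difference took part in choosing the genes. The values were log2 -2.15 for LINC02532, -1.92 for VAV3, -1.91 for KMO, -1.45 for SEMA5B, -1.24 for DIRAS2 and -0.80 for ARHGAP6. They were not equally firm: the ARHGAP6 call was lost in 14 of 22 alternatives and that of DIRAS2 in 1 of 22. At day 5 the log2 difference of BMN from control was -3.11 in KO and -0.55 in WT for LINC02532, and -1.73 in KO and 0.30 in WT for KMO.

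The change of VAV3 between days 5 and 26 of BMN also differed between the lines, by log2 1.42: it was 0.91 in KO and -0.51 in WT. In KO cells VAV3 had 4.50 and 4.23 CPM at day 26, against 2.13 and 2.50 CPM at day 5, and in WT cells 14.2 and 12.6 CPM against 19.4 and 18.7 CPM. That test was added after the values were seen. What lies behind these differences was not tested.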

How the results depend on the processing

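The counts of genes called lower under BMN than in control in KO stayed at 8 or 9 at days 5, 16 and 26 under RLE size factors, DESeq2, no filter, only the libraries compared, the name suffix as a term and the replicate block. They ran from 7 to 8, 8 to 9 and 8 to 9 with 1 library left out. In WT the count at day 5 was 1 by DESeq2, and at day 16 it was 2 by DESeq2, 3 with no filter, 2 with RLE size factors and 0 to 3 with 1 library left out, against 0 in the fit reported. At day 26 in WT it was 3 with only the libraries compared and 4 to 6 with 1 left out, against 5. Leaving out 1 library gave 1 to 2 calls (3 reported) for day 26 against day 5 of BMN in KO, 1 to 3 (3) in WT, 0 to 1 (1) for the added VAV3 test, 8 to 9 (9) for KO against WT and 5 to 7 (6) for the difference of responses. Family genes called under DAC in WT numbered 36 at day 5 and 33 at day 26 with only the libraries compared, against 56 and 58. With 1 library left out, fewer family genes were always called in KO at days 5 and 26 and in WT at day 5. Of 1316 values of single genes under alternatives, 1218 kept their direction and side of the threshold, and 35 lost and 27 gained a call. A further 36, called in neither fit, changed sign, and 0 called values did. The cause was not tested.

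Replicate numbers showed no pairing common to all groups: over 190 pairs of groups the correlation of same-numbered deviations ran from -0.580 to 0.720. Some WT groups did share deviations with WT control. The correlation with WT control was 0.720 for WT DAC day 26 and 0.487 for WT BMN day 26, but -0.500 for WT DAC day 5. With the replicate block the counts for the 10 genes were the same (8, 9, 8, 0, 0, 5, 3, 3, 9, 6 and 1), and family genes called numbered 66 and 73 in KO and 54 and 59 in WT at days 5 and 26. The block changed no call of the 10 genes. With the numbers of WT DAC day 5 crossed, 55 were called. Genes near 0 counts, SMYD1 without DAC and MYH13 in WT above all, are limited by depth.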

Other observations

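Genes beside the 10 on the chromosome were examined under DAC. Of the 20 nearest tested neighbours with a symbol, 1 on each side, 6 were lower and 2 higher at day 5 in KO by edgeR. Of all genes 16% and 19.5% were. In WT at day 5 the counts were 7 and 2 (12.2% and 15.6%). At day 26 they were 7 and 3 in KO (20.9% and 26.3%) and 6 and 3 in WT (13.2% and 18.7%). The 2 higher at day 5 in KO lie beside SEMA5B: LINC02035 (log2 0.54 ± 0.16) and PDIA5 (0.28 ± 0.07). In WT LINC02035 was higher too (0.42 ± 0.14), and PDIA5 did not pass (0.09 ± 0.07). The values below are those of day 5 unless another day is named. CD24, a surface glycoprotein gene 181683 bases from LINC02532, was lower in KO (log2 -3.05 ± 0.13) and in WT (-1.67 ± 0.11). It has pseudogene copies, so some of its reads can match these too, and its level is uncertain to that extent. OPN3, which overlaps KMO on the opposite strand, was lower in both lines (-1.32 ± 0.11 in KO, -0.67 ± 0.11 in WT). Beside DIRAS2, the non-coding LINC01508 was lower in both lines (-1.50 ± 0.12 in KO, -0.61 ± 0.11 in WT), and SYK, a tyrosine kinase gene, was lower in KO (-0.75 ± 0.11) and did not pass in WT at day 5 (-0.07 ± 0.08), while at day 26 it was lower in both (-1.14 ± 0.11 in KO, -0.70 ± 0.09 in WT). QRSL1, on the other side of LINC02532, was lower in both lines at day 5 (-0.64 ± 0.11 in KO, -0.36 ± 0.10 in WT), as was KRCC1 (-0.60 ± 0.12 in KO, -0.60 ± 0.11 in WT), which lies beside SMYD1, a gene that was higher under DAC. HCCS, which overlaps ARHGAP6 on the opposite strand, did not pass (-0.02 ± 0.10 in KO). These neighbours were named after their values were seen.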
